A study of Rattus norvegicus with 10 samples.

Results

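The lectican matrix of the hippocampus was followed through 10 genes. They were the lecticans aggrecan (Acan), brevican (Bcan), neurocan (Ncan) and versican (Vcan), the link proteins Hapln1, Hapln2 and Hapln4, tenascin-R (Tnr), tenascin-C (Tnc) and the receptor phosphatase Ptprz1. The genes were chosen by name as components of perineuronal nets and related matrix, and the main row of each was its RefSeq RNA record with the highest mean count. All 10 had a row, out of 16610 gene symbols with one, and the 10 symbols held 15 of the 32041 RNA rows. All 10 main rows passed the filter on low counts, and 22431 rows were tested.

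Counts came from poly-A RNA of the left hippocampus, from a piece that held CA3 and dentate gyrus, of adult male Sprague-Dawley rats. Sham rats (n = 5) had anaesthesia, craniectomy and all other surgery without the impact. TBI rats (n = 5) had the same surgery followed by lateral fluid percussion, in which a fluid pressure pulse strikes the exposed dura over the left parietal lobe. Both groups were killed 3 months after the operation, and each rat gave 1 library. The model is a single injury of 1 hemisphere in male rats, and the tissue is a bulk piece, so fewer cells of a type and less RNA per cell cannot be told apart.

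Lecticans are chondroitin sulfate proteoglycans that bind hyaluronan through one end and tenascins through the other. Link proteins hold a lectican on its hyaluronan chain, and together they form the loose matrix between brain cells and the dense perineuronal nets around certain neurons, most of all parvalbumin interneurons. In the hippocampus nets also surround pyramidal cells of CA2, and this matrix is known for limiting plasticity and for being remodelled after injury.

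Several of these genes lie side by side in the rat genome, a lectican next to a link protein. In the RefSeq gene order of the assembly GRCr8, Hapln1 neighboured Vcan and Bcan neighboured Hapln2 on chromosome 2, Ncan neighboured Hapln4 on chromosome 16, and Acan neighboured a further link protein gene, Hapln3, on chromosome 1. The stretches of 250 bases before the annotated start of Bcan, Hapln2 and Tnc are shown because these members had the largest differences between groups. They are from RefSeq (GRCr8), 5′ to 3′ on the strand of the gene, ending at the base before the start, with motif matches on either strand in capitals.
Bcan, chr2:175765315-175765564, minus strand: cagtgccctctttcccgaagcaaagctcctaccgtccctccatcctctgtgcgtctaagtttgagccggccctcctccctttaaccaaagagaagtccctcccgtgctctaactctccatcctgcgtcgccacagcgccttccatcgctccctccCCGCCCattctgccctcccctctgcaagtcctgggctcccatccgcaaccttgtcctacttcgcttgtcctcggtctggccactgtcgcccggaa
Hapln2, chr2:175794439-175794688, minus strand: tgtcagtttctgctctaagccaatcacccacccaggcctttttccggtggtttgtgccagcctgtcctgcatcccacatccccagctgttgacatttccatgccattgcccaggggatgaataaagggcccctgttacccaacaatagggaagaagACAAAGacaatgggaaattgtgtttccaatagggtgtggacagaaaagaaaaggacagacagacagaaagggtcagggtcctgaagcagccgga
Tnc, chr5:82476132-82476381, minus strand: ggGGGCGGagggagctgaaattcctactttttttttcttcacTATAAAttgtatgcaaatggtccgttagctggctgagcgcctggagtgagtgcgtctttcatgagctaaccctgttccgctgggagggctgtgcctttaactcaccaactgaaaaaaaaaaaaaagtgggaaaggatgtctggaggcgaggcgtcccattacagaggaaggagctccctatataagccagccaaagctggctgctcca

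The stretch before Bcan held 15 CpG and that before its neighbour Hapln2 held 2, against a median of 6 over 27457 rat promoters of this length. The stretch before Tnc held 7. Letter patterns were searched on both strands, and an entry was found for 9 of the 10 members, with none for Ptprz1. In the stretches shown no match overlapped one of another pattern. The GC box GGGCGG stood before 5 members (Acan, Bcan, Ncan, Vcan and Tnc) and in 32.4% of all promoters. The SOX core ACAAAG stood before Hapln1 and Hapln2 and in 15.96% of all promoters. The TATA box TATAAA stood before Ncan and Tnc and in 13.1% of all promoters. The AP-1 site TGANTCA, in 6.36% of all promoters, and the STAT site TTCNNNGAA, in 7.52%, matched none of the 9. These matches describe letters only.

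The libraries held 23425817 to 31671838 counts on RNA rows. In sham replicates 4 and 5 ribosomal RNA rows took 59.0% and 58.5% of them, against 12.5% to 26.2% in the other 8 rats, so counts outside ribosomal RNA ranged from 12686398 to 24735107. Levels are in CPM, counts scaled to a common TMM-adjusted library size, and changes are log2 of TBI over sham. In edgeR's quasi-likelihood test 0 of 22431 rows passed an adjusted p of 0.05, and 1769 had an unadjusted p under 0.05, 1097 higher and 672 lower in TBI. DESeq2 passed 3 rows at the adjusted threshold, the exact test of edgeR 0 and limma voom 0. The median change of all rows was -0.01 with TMM, 0.14 with totals outside ribosomal RNA and 0.50 with plain totals. The share of lower rows among those under 0.05 was 37.99%, 3.58% and 0.686% under the same scalings. Directions below are therefore relative to TMM.

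The question was whether transcripts of this matrix differ between TBI and sham rats. Of the 10 members, Bcan alone had an unadjusted p under 0.05, with a higher level in TBI, against a background of 7.89% of all rows in either direction and 4.89% in that direction. None of the 10 passed the adjusted threshold, where 0% of all rows passed. The smallest Benjamini-Hochberg adjusted p of a member was 0.511 in edgeR. The 2 groups overlapped for all 10 members, and groups that did not overlap were 0.923% of all rows. Of the 10 changes 5 were above and 5 below 0, with a median of 0.02 beside -0.01 over all rows, while all 10 were above 0 under both total count scalings, which also shifted the other rows. These counts were near the background.

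**Figure D1:**
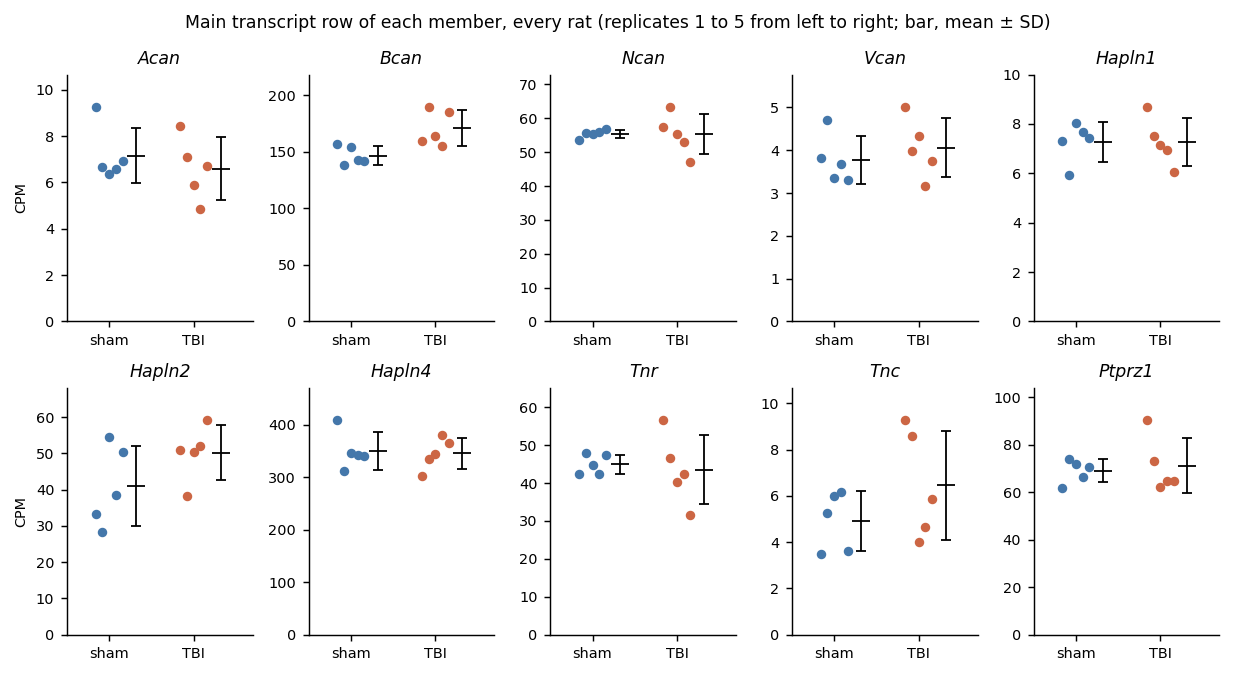
Level of the main row of each gene in CPM (vertical axis, from 0) in 5 sham and 5 TBI rats, 1 point per rat in replicate order, with a bar for the mean ± SD. The 2 groups overlap in every panel, and 4 of 5 TBI rats lie above the highest sham rat for Bcan alone.

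Among the lecticans, Bcan, which codes for brevican, a proteoglycan abundant in the adult brain and made by astrocytes and neurons, stood at 157, 138, 154, 142 and 142 CPM in sham replicates 1 to 5. It stood at 159, 190, 164, 155 and 186 CPM in TBI replicates 1 to 5. Of the TBI rats 4 were above the highest sham rat, and TBI replicate 4 lay within the sham range. The mean was 147 ± 8.4 CPM (SD, n = 5) in sham and 171 ± 15.7 CPM (SD, n = 5) in TBI, a level 16.5% higher. The change was 0.22 (SE 0.079, 95% interval 0.05 to 0.39), with an unadjusted p of 0.012 and an adjusted p of 0.511 in edgeR. The second Bcan record, NM_012916.2, changed by 0.24 (SE 0.087) with an unadjusted p of 0.013 in edgeR, but records of 1 gene share reads and are no separate evidence. The main record held 60.6% to 63.9% of the Bcan counts in all 10 rats, and its share did not separate the groups (two-sided exact permutation p = 0.60).

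The call of Bcan did not hold in every setting. With the ribosomal RNA share as a covariate the change was 0.15 (unadjusted edgeR p of 0.165). Without sham replicates 4 and 5 it was 0.19 (unadjusted edgeR p of 0.065), so Bcan lost its call in both. Both of these rats are sham, so the share overlaps with group in the fit, and leaving them out leaves fewer sham rats. Whether the ribosomal share or the lower precision of these fits took the call away was not tested. Leaving out any 1 rat kept the p under 0.05, with changes from 0.18 to 0.25. Within the 8 rats of ordinary ribosomal share, Pearson's r between Bcan and that share was -0.79 (permutation p = 0.022, adjusted over the 10 members 0.22) and rho was -0.62 (permutation p = 0.11). Without the 2 rats farthest from the median share, r was -0.21, so the relation rested on them. For the other 9 members no adjusted permutation p was below 0.34.

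**Figure D2:**
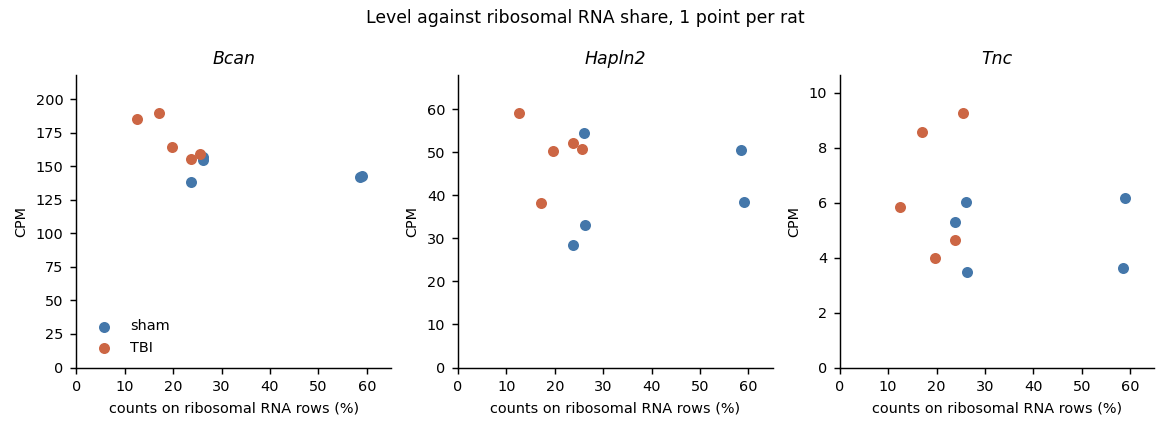
Level in CPM (vertical axis, from 0) of Bcan, Hapln2 and Tnc against the percent of counts that fell on ribosomal RNA rows (horizontal axis), 1 point per rat. Sham replicates 4 and 5 stand alone near 59%, and the 2 TBI rats with the lowest shares have the highest Bcan levels.

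Acan codes for aggrecan, the lectican that marks most perineuronal nets. Its level was 9.27, 6.65, 6.37, 6.59 and 6.93 CPM in the sham rats and 8.44, 7.10, 5.90, 4.84 and 6.73 CPM in the TBI rats. Sham replicate 1 was the highest of all 10 rats and TBI replicate 4 the lowest, and the other 8 were mixed. The change was -0.12 (SE 0.14, 95% interval -0.42 to 0.18), with an unadjusted p of 0.399 in edgeR. Sham replicate 1 was also the rat with the highest Pvalb, at 33.8 CPM, and the lowest of the dentate marker Prox1, at 9.55 CPM against 25.7 to 41.4 CPM in the other sham rats. Whether the makeup of the tissue piece had a part in its Acan level was not tested.

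Ncan codes for neurocan, the other lectican typical of the nervous system. It was nearly flat over the sham rats, at 53.6, 55.6, 55.3, 56.0 and 56.7 CPM, and spread wider over the TBI rats, at 57.5, 63.4, 55.4, 52.9 and 47.2 CPM. The highest and the lowest level were both in TBI rats. The means were 55.4 ± 1.18 and 55.3 ± 5.96 CPM (SD, n = 5 each), and the change was -0.0037 (SE 0.079, 95% interval -0.17 to 0.16, adjusted p = 0.997 in edgeR). The coefficient of variation was 2.13% in sham and 10.8% in TBI, a difference that was not tested.

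Vcan codes for versican, whose forms occur in white matter, in oligodendrocyte precursors and in vessels. Its main record stood at 3.81, 4.71, 3.35, 3.67 and 3.31 CPM in sham and 5.02, 3.99, 4.34, 3.16 and 3.75 CPM in TBI, on 53 to 173 counts per library. The groups were mixed, with a change of 0.10 (SE 0.14, 95% interval -0.20 to 0.39, adjusted p = 0.903 in edgeR). The other 3 Vcan records changed by 0.06 (NM_001170560.1), -0.14 (NM_053663.1) and 0.0032 (NM_001170559.1), each with an unadjusted p of at least 0.409 in edgeR. The record NM_053663.1 held 22.5% ± 1.80 of the Vcan counts in sham and 20.1% ± 1.61 in TBI (SD, n = 5 each). This share did not differ past the threshold (two-sided exact permutation p = 0.071), and over short single reads such shares are uncertain because the records overlap.

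Among the link proteins, Hapln1, a general partner of lecticans and a component of nets, stood at 7.30, 5.93, 8.06, 7.68 and 7.43 CPM in sham rats. It stood at 8.70, 7.50, 7.16, 6.92 and 6.06 CPM in TBI rats, with means of 7.28 ± 0.81 and 7.27 ± 0.96 CPM (SD, n = 5 each). The change was -7.5e-05 (SE 0.12, 95% interval -0.24 to 0.24, adjusted p = 1.00 in edgeR).

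Hapln4, a link protein known from brevican-rich nets and from synapses of inhibitory neurons, was 409, 311, 347, 343 and 341 CPM in sham and 303, 335, 344, 380 and 365 CPM in TBI. The highest rat was a sham rat and the lowest a TBI rat, with the rest mixed. The change was -0.02 (SE 0.087, 95% interval -0.20 to 0.16, adjusted p = 0.979 in edgeR).

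Hapln2, a link protein of nodes of Ranvier in myelinated tracts, varied most of the link proteins in sham rats, at 33.2, 28.4, 54.5, 38.5 and 50.4 CPM. In TBI rats it was 50.8, 38.2, 50.4, 52.1 and 59.2 CPM, and only TBI replicate 5 lay above the highest sham rat. The means were 41.0 ± 11.2 and 50.1 ± 7.57 CPM (SD, n = 5 each). The change was 0.29 (SE 0.18, 95% interval -0.09 to 0.68), with an unadjusted p of 0.124 and an adjusted p of 0.733 in edgeR. A single rat decided on which side of 0.05 it fell: the change was 0.42 without sham replicate 3 (unadjusted edgeR p of 0.018) and 0.38 without TBI replicate 2 (unadjusted edgeR p of 0.047).

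The tenascins cross-link the net. Tnr, which codes for tenascin-R, made by oligodendrocytes and some interneurons and a ligand that gathers lecticans into nets, stood at 42.4, 47.9, 44.6, 42.5 and 47.3 CPM in sham rats. It stood at 56.6, 46.6, 40.4, 42.5 and 31.6 CPM in TBI rats, which held both the highest and the lowest level. The change was -0.05 (SE 0.12, 95% interval -0.29 to 0.20, adjusted p = 0.951 in edgeR). The coefficient of variation was 5.77% in sham and 21.0% in TBI, again a difference that was not tested.

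Tnc codes for tenascin-C, a matrix protein of development and of reactive astrocytes. It was 3.50, 5.28, 6.01, 6.18 and 3.62 CPM in sham and 9.28, 8.57, 3.99, 4.65 and 5.85 CPM in TBI. TBI replicates 1 and 2 were above all sham rats, and the other 3 lay within the sham range. The change, 0.40, was the largest of the 10, but so was its error (SE 0.26, 95% interval -0.16 to 0.97), and the unadjusted p was 0.147 in edgeR. Without TBI replicate 3 the change was 0.53 (unadjusted edgeR p of 0.035). The same 2 rats, TBI replicates 1 and 2, were the highest for 5 of 7 astrocyte markers and for 3 of 3 markers of CA1. The exceptions were Slc1a3 and Aldoc, and Aldoc was lowest of all in TBI replicate 1, at 646 CPM. The astrocyte markers summed to 3993 and 4000 CPM in these rats and the CA1 markers to 216 and 376 CPM, against 2396 to 3441 CPM and 37.4 to 144 CPM in the other 8. These 2 rats also had the highest sums for microglia and thalamus markers, lectican-cutting proteases with their inhibitor, and other proteoglycans and lectican partners. The sums of the remaining lists did not have these 2 rats as their highest. The part of cell or tissue makeup in the Tnc level of these 2 rats was not tested.

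Ptprz1, a receptor phosphatase of glia that binds tenascins and contactin and whose secreted form is itself a chondroitin sulfate proteoglycan, was 61.8, 74.0, 71.9, 66.5 and 70.7 CPM in sham. In TBI it was 90.3, 73.2, 62.1, 64.7 and 64.9 CPM. TBI replicate 1 stood above all other rats, and the remaining 4 lay within the sham range. The change was 0.04 (SE 0.097, 95% interval -0.16 to 0.25, adjusted p = 0.945 in edgeR), and that of the second record, NM_001170685.1, was 0.0093 (adjusted p = 0.994 in edgeR).

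**Figure D3:**
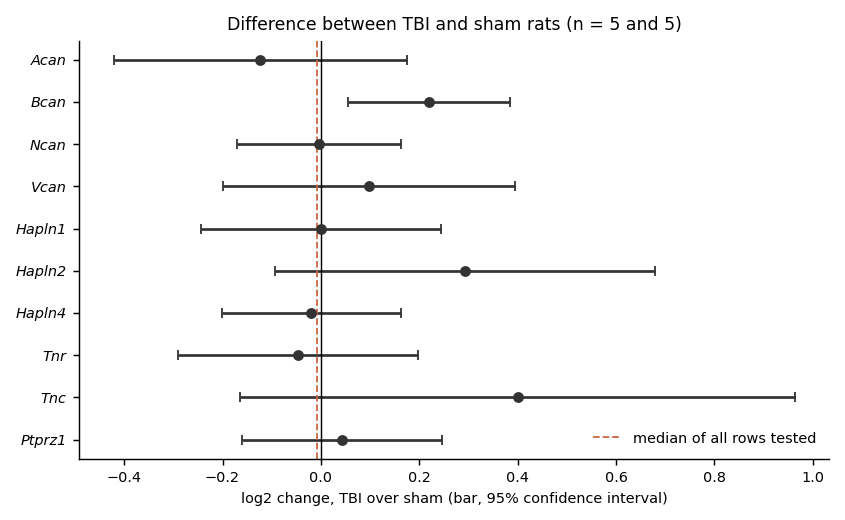
Log2 change of TBI over sham (horizontal axis) for each of the 10 genes, with its 95% interval, and the median of all 22431 rows as a dashed line. The interval lies wholly above 0 for Bcan alone, is narrowest for Bcan and Ncan and is widest for Tnc, at -0.16 to 0.97.

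The members were next set against each other over the 10 rats, a choice made after seeing the data. Of 45 pairs, 5 had an unadjusted permutation p under 0.05 for Pearson's r, and 0 passed after adjustment over the 45. The r of largest size was between Hapln4 and Ptprz1, at -0.81 (permutation p = 0.0042, adjusted 0.19), with a rho of -0.87 (permutation p = 0.0022, adjusted 0.040). It was -0.67 without the 2 rats farthest from the median of Hapln4, -0.81 after centring on the group means and -0.82 without sham replicates 4 and 5. Tnr and Ptprz1 had an r of 0.77 (permutation p = 0.018, adjusted 0.27) and a rho of 0.88 (permutation p = 0.0016, adjusted 0.040), and r was 0.68 without the 2 farthest rats. Ncan and Hapln4, neighbours in the genome, had an r of -0.49 (permutation p = 0.14, adjusted 0.56) and a rho of -0.85 (permutation p = 0.0027, adjusted 0.040), with an r of -0.55 without the 2 farthest rats. Without sham replicates 4 and 5 the r of these 2 pairs was 0.78 and -0.49. These 3 pairs passed by rank and not by r. The values of 1 library share its scaling, so these relations carry that in common.

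**Figure D4:**
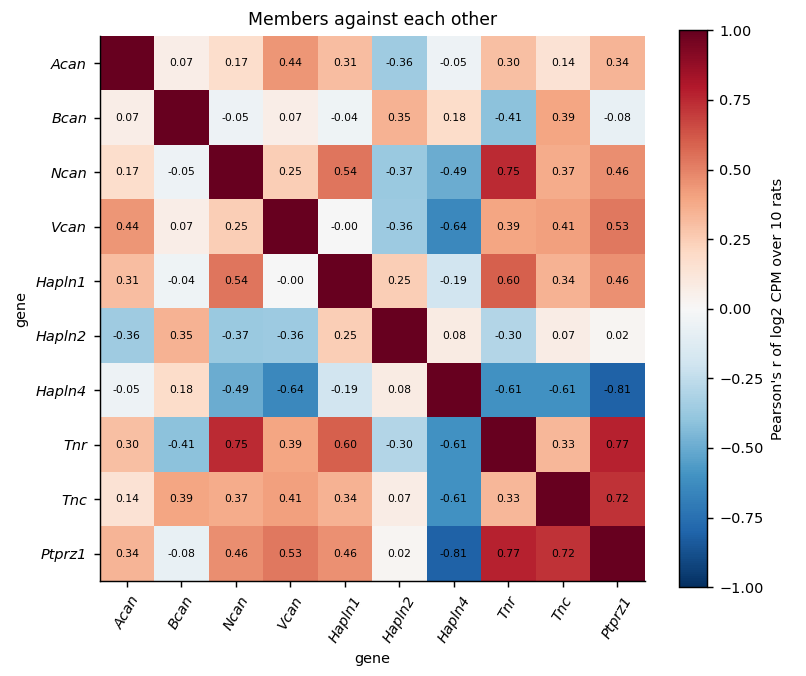
Pearson's r of log2 CPM over 10 rats for each pair of the 10 genes, printed in each cell and coloured from -1 (blue) to 1 (red). Hapln4 is negative with 7 of the other 9 genes, and the most positive cell is Tnr with Ptprz1, at 0.77.

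Of 6 relations between a member and a marker of the cells it is known to surround or come from, 0 passed an adjusted permutation p of 0.05. For Acan and Pvalb, the calcium-binding protein of the interneurons that nets enclose, r was 0.49 (permutation p = 0.15, adjusted 0.46) and rho 0.39 (permutation p = 0.26, adjusted 0.79), and r fell to 0.08 without the 2 rats farthest from the median of Pvalb. Without sham replicates 4 and 5 it was 0.54. For Vcan and Pdgfra, the receptor that marks oligodendrocyte precursors, r was 0.56 (permutation p = 0.093, adjusted 0.46) and rho 0.66 (permutation p = 0.044, adjusted 0.26). It was 0.60 without the 2 farthest rats, 0.60 without sham replicates 4 and 5 and 0.73 after centring on the group means (permutation p = 0.028, adjusted 0.17). With totals outside ribosomal RNA in place of TMM, r of Vcan and Pdgfra was 0.82 (permutation p = 0.0036, adjusted 0.021). Both genes of a pair share the scaling of a library, so a change of scaling by itself moves r. Its part in this value was not tested. The r of Hapln1 and of Hapln4 with Pvalb was -0.30 and 0.25, that of Hapln2 with the myelin gene Mog -0.10 and that of Ncan with the astrocyte gene Gfap 0.10, each with an adjusted permutation p of at least 0.72. Their rho was -0.15, 0.030, -0.091 and 0.16, each with a permutation p of at least 0.66 and an adjusted permutation p of 0.95. Without the 2 rats farthest from the median of the marker their r was -0.34, 0.73, 0.17 and -0.63.

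The enzymes and partners of the matrix were read from 6 lists, of which 50 of 61 genes were tested. Of these 50, 3 had an unadjusted p under 0.05, all higher in TBI, against 4.89% of all rows in that direction, and 0 were lower, against 3% of all rows. None passed the adjusted threshold in edgeR. The count was 12 under both total count scalings and 7 without sham replicate 3. With the ribosomal covariate it was 2, 1 in sulfation and 1 in hyaluronan synthesis and breakdown. In that setting 0 of 6 other proteoglycans and partners and 0 of 13 receptors and ligands passed, so Fbln1, Mdk and Cd44 lost their calls. Without sham replicates 4 and 5 the count was 4, with 1 of 6 and 1 of 13 in these lists. The 50 changes had a median of 0.06, with 34 above and 16 below 0. Fbln1, which codes for a matrix protein that binds lecticans, was 20.6, 20.2, 27.8, 21.3 and 17.3 CPM in sham and 33.1, 34.3, 23.4, 23.6 and 27.9 CPM in TBI, a change of 0.40 (SE 0.13, unadjusted edgeR p of 0.0071, adjusted p = 0.487). Mdk, which codes for midkine, a growth factor that binds chondroitin sulfate and Ptprz1, was 8.55, 9.31, 12.6, 8.97 and 10.0 CPM in sham and 12.7, 11.7, 11.8, 12.2 and 12.8 CPM in TBI. Its change was 0.30 (SE 0.11, unadjusted edgeR p of 0.0098, adjusted p = 0.507). Cd44, which codes for a hyaluronan receptor, was 2.68, 5.82, 5.04, 3.53 and 4.00 CPM in sham and 12.1, 8.25, 4.02, 5.50 and 5.88 CPM in TBI, a change of 0.75 (SE 0.32, unadjusted edgeR p of 0.039, adjusted p = 0.620). The groups overlapped for all 3, and Fbln1 and Cd44, like Tnc, were highest in TBI replicates 1 and 2. The study itself listed Fbln1 and Cd44 as higher in TBI, and its methods give 3 controls for this assay, while 5 sham rats were used here.

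In chondroitin sulfate chain synthesis, 0 of 10 genes had a p under 0.05, with a median change of -0.02. The smallest p was that of Csgalnact1, an enzyme that starts the chain, at -0.20 (SE 0.13, adjusted p = 0.735 in edgeR). In chondroitin and dermatan sulfation it was 0 of 8 with a median of 0.11, led by Chst14, a dermatan sulfotransferase, at 0.40 (SE 0.20, adjusted p = 0.651 in edgeR). In hyaluronan synthesis and breakdown it was 0 of 7 with a median of 0.09, led by Has2, a hyaluronan synthase, at 0.72 (SE 0.49, adjusted p = 0.763 in edgeR) on levels below 0.5 CPM. Among proteases that cut lecticans and their inhibitor it was 0 of 6 with a median of 0.14, led by Adamts4, a lectican-cutting protease, at 0.20 (SE 0.12, adjusted p = 0.728 in edgeR). Other proteoglycans and lectican partners had 1 of 6 higher with a median of 0.16, and matrix receptors and ligands 2 of 13 higher with a median of 0.00081. The link protein gene next to Acan, Hapln3, changed by 0.20 (SE 0.29, adjusted p = 0.906 in edgeR).

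Of 9 markers of parvalbumin and GABAergic cells, 6 were lower in TBI at an unadjusted p under 0.05 and 0 higher, with a median change of -0.40, against 3% of all rows lower and 4.89% higher. Among these 6, Gad1, Gad2 and Syt2 had already been listed as lower in TBI by the study, so the count was partly known in advance. The count of 6 depended on the setting, which was examined after seeing the data. It was 3 with totals outside ribosomal RNA, 3 with the ribosomal covariate and 3 without sham replicates 4 and 5, with medians of -0.24, -0.34 and -0.35, and 4 to 7 with 1 rat left out. With plain totals it was 0, with a median of 0.14 beside 0.50 over all rows. With TMM the summed level of these 9 was 242 to 327 CPM in sham and 188 to 265 CPM in TBI. Pvalb itself was 33.8, 24.4, 15.01, 27.1 and 26.4 CPM in sham and 16.7, 17.4, 23.9, 13.7 and 23.7 CPM in TBI (change -0.40, unadjusted edgeR p of 0.092). The 10 members, with changes from -0.12 (Acan) to 0.40 (Tnc) and a median of 0.02, were not tested against this list as a whole. Only Pvalb of the list was used in a test, in the relations above with Acan, Hapln1 and Hapln4.

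Of 7 astrocyte markers 2 were higher, against 4.89% of all rows, with a median of 0.17 and a summed level of 2396 to 3198 CPM in sham and 2616 to 4000 CPM in TBI. The list was uneven, with Gfap at 0.82 (unadjusted edgeR p of 0.012) and Aldoc at -0.04 (adjusted p = 0.942 in edgeR). Of 3 markers of oligodendrocyte precursors and 7 of oligodendrocytes 0 passed in either direction, with medians of 0.13 and 0.02. Their summed levels were 58.2 to 75.6 and 2554 to 3670 CPM in sham, and 54.6 to 76.5 and 2628 to 3506 CPM in TBI. Microglia had 2 of 6 higher (141 to 218 CPM in sham, 167 to 235 CPM in TBI), vessels and meninges 2 of 6 higher (51.8 to 79.3 CPM in sham, 64.6 to 73.7 CPM in TBI) and neurons 0 of 4 (2444 to 3344 CPM in sham, 2517 to 3220 CPM in TBI). The calls of astrocyte markers, 2 with TMM, numbered 0 with the ribosomal covariate and 0 without sham replicates 4 and 5, and those of microglia did the same.

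The labelled regions were present, with CA3 markers summing to 1414 to 1737 CPM in sham and 1318 to 1725 CPM in TBI (0 of 3 passed), and dentate markers to 54.5 to 190 CPM in sham and 74.7 to 185 CPM in TBI (0 of 3 passed). CA2, whose pyramidal cells carry nets, had 0 of 3 passing (116 to 144 CPM in sham, 84.2 to 195 CPM in TBI). CA1 markers, of a region outside the labelled piece, had 1 of 3 higher (background 4.89%), with a median change of 1.40, and summed to 49.6 to 106 CPM in sham and 37.4 to 376 CPM in TBI. Beside the same background, thalamus had 1 of 2 higher (6.12 to 10.1 and 7.13 to 11.1 CPM) and choroid plexus 1 of 3 higher (5.78 to 33.9 and 10.5 to 34.2 CPM). None of the CA1 markers passed with the ribosomal covariate or without sham replicates 4 and 5, at medians of 1.33 and 1.44. In these 2 settings thalamus had 0 higher and 1 lower, against 1.97% and 2.29% of all rows lower. Choroid plexus had 0 higher with the covariate and 1 higher without these 2 rats. No marker tested was at 0 in any library, and the part of tissue makeup in the members' values was not tested.

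**Figure D5:**
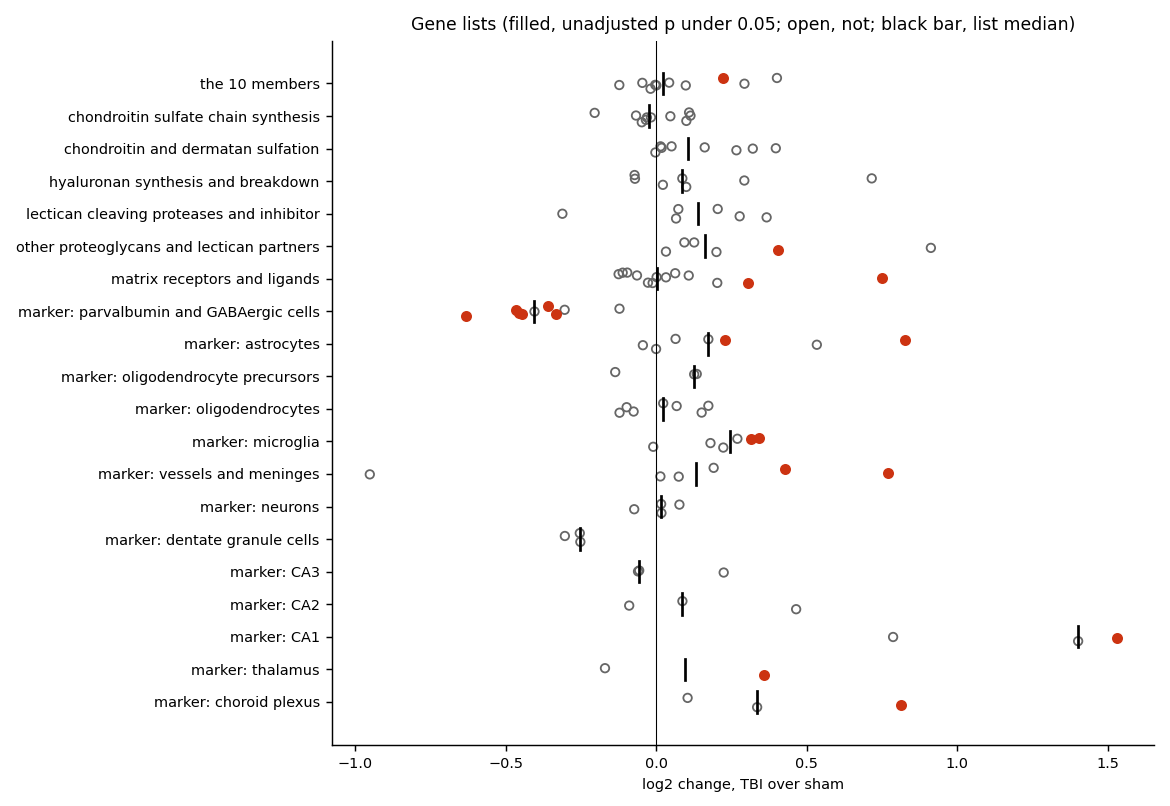
Log2 change of TBI over sham (horizontal axis) of each gene of the 10 members, the 6 lists of matrix enzymes and partners and the 13 marker lists, filled where the unadjusted p was under 0.05, with a black bar at each list's median. Among the members Bcan is the filled point, and the parvalbumin and GABAergic markers, 6 of 9 filled, lie below 0 with a median of -0.40 under the TMM scaling plotted, against 0.14 with plain totals.

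Over 10716 symbols with a mean of at least 1 CPM, the genes whose levels followed Acan most closely, by Pearson's r of log2 CPM centred on group means over the 10 rats, were Tspan13 and Sema3e (0.92 each), Arhgef3 and Fcgr3a (0.91 each) and Rbms1 (0.90). They were picked as the highest of all, so these values are a description.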

How the data were processed

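Poly-A RNA from 10 rats was sequenced as single short reads. The study aligned them with BWA and counted them with its own script, and the submitters' processing notes name the rat build rn4. The authors deposited raw counts, 1 row per RefSeq RNA record, without normalization or pooling. The methods name Ensembl transcripts, while the rows are RefSeq records, and give 3 controls for this assay, while the labels give 5, all used here. Unmapped reads (median 22.2%) and an empty entry were left out.

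Rows were named through RefSeq accessions of GRCr8, which named 54.2% of RNA rows and 57.7% of tested rows. GRCr8 is another assembly than rn4, so its coordinates are given only for the printed sequences. Counting was not stated to use strand, and records of 1 gene share reads. Rows with a total of at least 44 counts (the 30th percentile) were tested in edgeR 4.0.16 under R 4.3.3 (quasi-likelihood F test, robust, TMM), with Benjamini-Hochberg adjustment over 22431 rows. The SE was the absolute log2 change divided by the square root of F. The edgeR p-values weigh a group difference against the variation between these rats, estimated with information shared over rows. Replicate numbers only follow sample order. Correlations used permutation tests with 100000 resamples, except those centred on group means, which used all permutations within the groups. The smallest p of an exact test of 5 against 5 rats is 0.0079.

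The members and lists were chosen with earlier results of these data known. Of the called genes in the lists, the study itself had listed Cd44, Fbln1, Gfap, Wfs1 and Folr1 as higher in TBI and Gad1, Gad2 and Syt2 as lower. Counts of called genes in lists that hold them were thus partly known in advance. Named were all members, listed genes with an unadjusted p under 0.05, the gene with the smallest p of each list, the genes of 6 relations and the 5 most like Acan. Hapln3, Prox1, Aldoc, Slc1a3 and the makeup of single rats were named after their values were seen. Alternatives were DESeq2 1.42.0, limma 3.58.1, other scalings and filters, a ribosomal covariate, summed counts and leaving out rats, and the counts of marker lists under these were added after seeing the data. Python 3.11.15, scipy 1.17.1 and matplotlib 3.10.9 were used.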

Additional observations from a re-analysis of the deposited data

Results flagged for a closer look

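The Acan level of sham replicate 1, 9.27 CPM, stood apart from the other sham rats, at 6.37 to 6.93 CPM. Its gap to the nearest of them was 0.80 of the range of the group, above Dixon's critical value of 0.71 for 5 samples. Of 20 groups examined (10 genes in 2 groups) this was the 1 that passed, and chance gives about 1 in 20. Without this rat the change of Acan was -0.01, nearest to 0 of all changes with 1 rat left out.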

How the results depend on the processing

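The count of members with an unadjusted p under 0.05, 1 in the main comparison, was 3 with total count scaling (Bcan, Hapln2 and Tnc), 2 with totals outside ribosomal RNA (Bcan and Hapln2), 0 with the ribosomal covariate and 0 without sham replicates 4 and 5, and 1 to 2 with 1 rat left out. It was 1, Bcan, with the exact test, DESeq2, voom, median-of-ratios size factors, both other filters and summed counts. The count over all rows was 3788 with total count scaling, 2902 with totals outside ribosomal RNA, 992 with the covariate and 1162 (without sham replicate 2) to 2571 (without sham replicate 3) with 1 rat left out. The count of listed enzymes and partners, 3, was 12 under both total scalings and 2 to 7 with 1 rat left out (7 without sham replicate 3). With the ribosomal covariate it was 2, without Fbln1, Mdk and Cd44, and without sham replicates 4 and 5 it was 4. The relations past the threshold, 0, were 1 with totals outside ribosomal RNA, a scaling that both genes of a pair share.

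Bcan, Hapln2, Tnc and Vcan kept a change above 0 under all 21 alternatives. Acan, Ncan, Hapln1, Hapln4, Tnr and Ptprz1 changed sign under at least 1 alternative. With total count scaling, which shifts all rows, changes were 0.37 for Acan, 0.50 for Ncan, 0.52 for Hapln1, 0.48 for Hapln4 and 0.44 for Tnr, and with totals outside ribosomal RNA they were 0.030, 0.15, 0.15, 0.13 and 0.11. With the covariate they were 0.030 for Ncan, 0.091 for Hapln1 and 0.013 for Tnr. Without sham replicates 4 and 5 they were 0.017 for Ncan and 0.037 for Hapln1. Without a filter they were 0.0047 for Ncan and 0.0078 for Hapln1, and Hapln1 was 0.0024 with a filter of 1 CPM in 5 rats and 0.00015 with the exact test. With 1 rat left out, changes ran from -0.073 to 0.060 for Hapln1, -0.059 to 0.039 for Hapln4, -0.058 to 0.048 for Ncan, -0.16 to 0.050 for Tnr and -0.059 to 0.087 for Ptprz1. The causes were not tested. No paired analysis was possible because the labels give rats no shared replicate numbers. Precision was set by 5 rats a group, with an SE from 0.079 (Bcan and Ncan) to 0.26 (Tnc) among the members.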
